A study of Mus musculus with 24 samples.

Results

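Between the control-labelled legs of the 2 cohorts, the largest differences of single genes were in Chrng, Tubb2a and Chrnd. These genes were higher in the FOXO1 cohort. Chrng and Chrnd encode subunits of the acetylcholine receptor, and Tubb2a a beta tubulin. Contact of the fibres with their nerve was not tested. Electroporated tibialis anterior, a fast muscle of the lower leg, was taken from the control-labelled leg of 12 mice, 6 of a FOXO1 cohort and 6 of a FOXO3 cohort, which are 12 of the 24 arrays of the series and were chosen by their titles. The groups are the FOXO1 control legs (n = 6) and the FOXO3 control legs (n = 6), each labelled with the control plasmid, which encoded LacZ. Used beside them are the contralateral legs of the same mice, labelled with FOXO1dn (n = 6) or FOXO3dn (n = 6), a FOXO protein without its transactivation domain. All were male C57BL/6J mice of 30 weeks, fasted for 4 h, and sampled 1 week after electroporation and 2 h after oral glucose. All 12 legs compared here therefore share electroporation and a glucose load and, by their labels, the control plasmid. No untreated muscle stood beside them. Electroporation reaches only some of the fibres, and the other leg of each mouse held a different plasmid.

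By the labels, the median of the macrophage genes was higher in the control-labelled than in the FOXOdn-labelled leg of 6 of 6 FOXO1 mice and 4 of 6 FOXO3 mice. Neutrophil genes held this order in 4 FOXO1 and 0 FOXO3 mice, B cell genes in 4 and 3, and mast cell genes in 3 and 2. Interferon-stimulated, chemokine and antigen presentation genes each held it in 5 and 6 mice. T and NK cell genes held it in 6 and 6, and acute phase genes in 6 and 5. The study describes inflammatory genes as raised by its FOXOdn constructs, which is the opposite order, and which leg of a mouse carried which plasmid was not settled here. The legs are therefore called by their labels, control-labelled (in short FOXO1 control legs and FOXO3 control legs) and FOXOdn-labelled, and every value below holds for the legs as labelled. Were the labels exchanged, the contrast of control-labelled legs, with its Chrng, Tubb2a and Myog differences, would be one of FOXO1dn against FOXO3dn. An exchange of labels was not tested. The cohort and any batch of arrays cannot be told apart, because each cohort was a set of mice and arrays of its own. Values are log2 intensities of Affymetrix Mouse Gene 2.1 ST arrays after robust multiarray averaging, with 1 probe set for each of 20274 genes, and the number of arrays limits their precision. An array's background was set at the 95th percentile of its 1385 receptor genes for odours and pheromones, which muscle does not use, and lay between 3.45 and 3.74. In bulk muscle, fewer cells of a type and less RNA per cell cannot be told apart.

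As background, the acetylcholine receptor of a mature fibre sits under the nerve terminal and contains the epsilon subunit. Fetal and denervated fibres use the gamma subunit instead and transcribe the receptor along their whole length, driven by myogenic factors such as myogenin that bind E-boxes in the promoters. Muscle also keeps a circadian clock, in which BMAL1, encoded by Arntl, activates its own repressors and the output factor DBP, and it responds to injury with infiltrating macrophages, chemokines and heat shock proteins.

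The acetylcholine receptor subunits measured here, apart from Chrne, were higher in FOXO1 control legs than in FOXO3 control legs. Chrng, the gamma subunit of the fetal receptor, ranged over 7.91, 8.74 and 9.29 (lowest, median, highest log2 intensity) in FOXO1 control legs, against 3.74, 4.23 and 5.67 in FOXO3 control legs. The groups did not overlap, and within FOXO3 control legs mice 2 and 6, with 5.67 and 5.51, stood above the other 4. The difference was 4.16 on the log2 scale, a 17.9-fold higher intensity (standard error 0.34, adjusted p = 6.23e-06 from limma over all 20274 genes). Values near background, the lowest being 3.74 in FOXO3 control legs, limit the size of this fold. Chrnd, the delta subunit, ranged over 7.81, 8.83 and 9.35 in FOXO1 control legs, against 4.12, 4.94 and 6.58 in FOXO3 control legs, a difference of 3.57 (standard error 0.42, adjusted p = 8.44e-05). Chrna1, the alpha subunit that binds acetylcholine, ranged over 8.56, 9.12 and 9.73 in FOXO1 control legs, against 6.22, 6.72 and 7.69 in FOXO3 control legs. Its difference was 2.29 (standard error 0.27, adjusted p = 9.73e-05), again without overlap. Chrnb1, the beta subunit, averaged 7.89 ± 0.26 in FOXO1 control legs and 6.98 ± 0.29 in FOXO3 control legs (SD, n = 6 each), and Musk, the receptor kinase that organizes the junction, averaged 7.60 ± 0.14 and 6.55 ± 0.14 in the same groups. Chrne, the epsilon subunit of the adult receptor, was the exception. It ranged over 4.99, 5.54 and 6.14 in FOXO1 control legs, against 4.57, 5.61 and 6.16 in FOXO3 control legs, and differed by 0.07 (standard error 0.23, adjusted p = 0.864).

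The promoters of Chrng, Chrna1 and Musk are printed because these genes differed between the cohorts, and that of Chrne because it did not. Each run is the 250 bases before the transcription start in RefSeq on GRCm38.p6, written 5′ to 3′ on the gene's strand, and capitals mark CAGCTG, an E-box form bound by myogenic factors, which reads the same on both strands. CAGCTG occurred in 13% of 32851 such windows. Of 8 genes looked up for promoters, 7 had a window.
Chrng chr1:87205561-87205810 (+): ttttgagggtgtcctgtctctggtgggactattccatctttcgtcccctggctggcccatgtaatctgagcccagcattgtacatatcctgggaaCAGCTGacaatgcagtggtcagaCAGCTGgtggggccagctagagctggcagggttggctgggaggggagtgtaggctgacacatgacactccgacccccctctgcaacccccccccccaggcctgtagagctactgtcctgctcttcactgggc
Chrna1 chr2:73580339-73580588 (-): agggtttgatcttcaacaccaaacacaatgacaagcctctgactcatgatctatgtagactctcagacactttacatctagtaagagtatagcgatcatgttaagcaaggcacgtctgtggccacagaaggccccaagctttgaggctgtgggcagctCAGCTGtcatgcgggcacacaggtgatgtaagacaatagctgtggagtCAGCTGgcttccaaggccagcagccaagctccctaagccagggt
Musk chr4:58285712-58285961 (+): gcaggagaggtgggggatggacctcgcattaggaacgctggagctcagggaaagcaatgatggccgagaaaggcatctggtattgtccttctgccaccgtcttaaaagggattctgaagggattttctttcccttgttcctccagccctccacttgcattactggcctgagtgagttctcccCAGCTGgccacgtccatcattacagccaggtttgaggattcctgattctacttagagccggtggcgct
Chrne chr11:70619195-70619444 (-): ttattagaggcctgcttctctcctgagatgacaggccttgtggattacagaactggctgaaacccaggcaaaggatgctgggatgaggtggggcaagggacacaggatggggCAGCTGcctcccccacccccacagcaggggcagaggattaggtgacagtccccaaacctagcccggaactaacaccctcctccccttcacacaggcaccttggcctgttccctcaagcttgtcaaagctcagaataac
The motif starts 155 and 132 bases before the start of Chrng, 92 and 44 bases before that of Chrna1, 68 bases before that of Musk and 138 bases before that of Chrne, and the window of Chrnb1 holds 0 matches. The letters thus occur both in genes that differed and in Chrne, which did not.

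**Figure D1:**
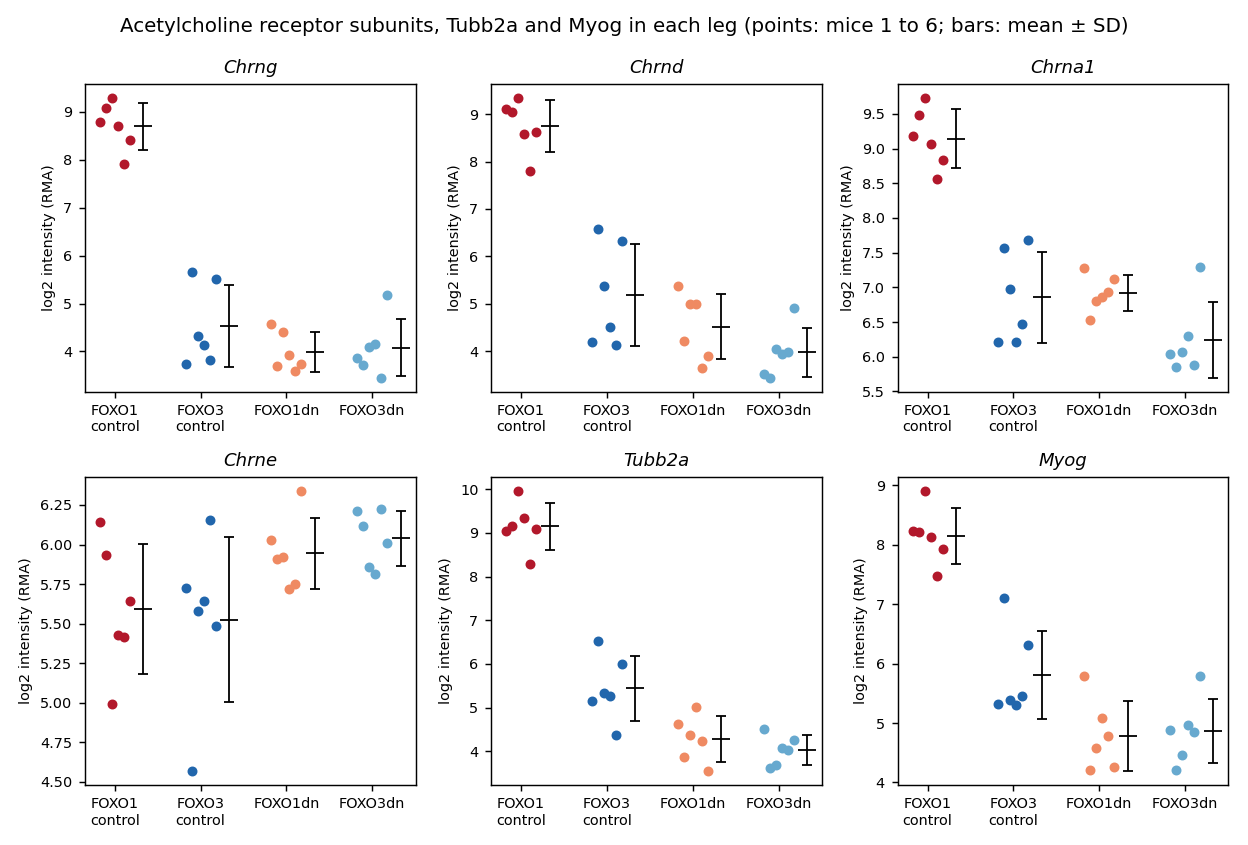
Log2 intensity (y axis) of Chrng, Chrnd, Chrna1, Chrne, Tubb2a and Myog in the 4 groups of legs (x axis), with 1 point per mouse and bars for the mean and SD of 6 mice. The FOXO1 control legs lie above every other leg for all of these genes but Chrne, as for Chrng, where the lowest FOXO1 control leg is at 7.91 and the highest leg of the other groups at 5.67.

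Other genes were higher together with the subunits. Tubb2a, a beta tubulin, ranged over 8.28, 9.13 and 9.96 in FOXO1 control legs, against 4.37, 5.30 and 6.53 in FOXO3 control legs, a difference of 3.71 (standard error 0.32, adjusted p = 8.26e-06). Tubb2b averaged 6.16 ± 0.28 in FOXO1 control legs and 3.40 ± 0.42 in FOXO3 control legs (SD, n = 6 each), where it was at or near background. Myog, which encodes myogenin, ranged over 7.47, 8.17 and 8.91 in FOXO1 control legs, against 5.30, 5.42 and 7.10 in FOXO3 control legs, a difference of 2.34 (standard error 0.30, adjusted p = 0.000172). Here too the high values of the FOXO3 control legs were those of mice 2 and 6. Of 15 measured genes of denervation and the junction, 11 were higher and 0 lower in FOXO1 control legs at an adjusted p under 0.05, beside 18.5% of all genes higher and 3.7% lower, and the median difference was 0.91, beside 0.0993 over all genes. Among the 11 were Runx1, a transcription factor of denervated muscle (1.02), Tubb6 (1.41), Hdac4 (0.38) and Nes, the intermediate filament nestin (0.90). The members that did not pass were Chrne, Ache, the acetylcholinesterase (0.05), Rapsn, which clusters the receptor (0.21), and Dok7, an activator of the kinase MuSK (0.19). Medians of these 15 genes per array lay between 6.69 and 7.24 in FOXO1 control legs and between 5.37 and 6.36 in FOXO3 control legs. This list, like the others below, was chosen with earlier results of these data known. It holds Chrng, Tubb2a, Chrnd and Chrna1 themselves, so its count gives their differences no separate support.

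Of 14 measured genes of developing and regenerating fibres 7 were higher in FOXO1 control legs and 0 lower, beside 18.5% and 3.7% of all genes, with a median difference of 0.48. After centring, quantile normalization and cyclic loess 5, 3 and 4 of the 14 were higher, beside 2472, 1636 and 1762 of all 20274 genes. Myh3, the embryonic myosin heavy chain, had a difference of 1.45 (adjusted p = 0.0208), Mymk, the myoblast fusion protein myomaker, one of 1.19 (adjusted p = 0.0186) and Myf6, a myogenic factor of mature fibres, one of 0.62 (adjusted p = 0.000812). Ncam1, an adhesion molecule that spreads over the fibre after denervation, passed narrowly (0.68, adjusted p = 0.0486), and it missed the threshold in 13 of 22 other settings. Myod1 differed by 0.43 (adjusted p = 0.132). Markers of immune cells rose with this group, as given below, and their part in it was not tested.

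The contralateral legs of the same mice differed less. Chrng ranged over 3.59, 3.84 and 4.58 in FOXO1dn-labelled legs, against 3.46, 3.97 and 5.18 in FOXO3dn-labelled legs, and differed by -0.09 (adjusted p = 0.826). Background was 3.45 to 3.74 in control-labelled arrays. The low Chrng values in both FOXOdn-labelled groups limit the size of its differences. Tubb2a differed by 0.25 between these legs (adjusted p = 0.43), Myog by -0.08 (adjusted p = 0.871) and Chrnd by 0.55 (adjusted p = 0.196), while Chrna1 was still higher in FOXO1dn-labelled legs by 0.68 (adjusted p = 0.03). A test of the difference itself, by limma over 24 arrays with mouse treated as a random effect, gave a larger cohort difference in control-labelled than in FOXOdn-labelled legs for Chrng by 4.25 (adjusted p = 3.46e-06), Tubb2a by 3.46 (adjusted p = 2.57e-05), Chrnd by 3.02 (adjusted p = 0.00596), Myog by 2.41 (adjusted p = 0.00668), Tubb2b by 2.04 (adjusted p = 0.000111), Chrna1 by 1.61 (adjusted p = 0.0409) and Musk by 0.87 (adjusted p = 0.00442). This test called 59 genes, 0.291% of all, with 49 (0.242%) in the positive and 10 (0.0493%) in the negative direction. The count depended on single mice. Without FOXO3 mouse 2 it called 120 genes in the positive and 62 in the negative direction, and without FOXO3 mouse 5 it called 26 and 5.

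Genes outside the junction list were also among those with the largest differences. Gsto1, a glutathione transferase of the omega class, ranged over 8.59, 8.96 and 9.70 in FOXO1 control legs, against 6.02, 6.18 and 6.25 in FOXO3 control legs. The 6 FOXO3 control legs spanned less than the distance between the groups, and the difference was 2.83, or 7.1-fold (standard error 0.15, adjusted p = 1.22e-07). In the contralateral legs Gsto1 was higher by 0.56 in FOXO1dn-labelled than in FOXO3dn-labelled legs (adjusted p = 0.00117), and the 2 differences differed by 2.26 (adjusted p = 6.65e-08). Gstt1, a glutathione transferase of the theta class, averaged 5.97 ± 0.78 in FOXO1 control legs and 3.70 ± 0.16 in FOXO3 control legs (SD, n = 6 each). Cdkn1a, the cell cycle inhibitor p21, ranged over 9.78, 10.43 and 10.78 in FOXO1 control legs, against 7.48, 8.02 and 8.90 in FOXO3 control legs, a difference of 2.14 (adjusted p = 5.43e-05), and it was higher by 0.85 in FOXO1dn-labelled than in FOXO3dn-labelled legs (adjusted p = 0.00288). The test of the difference between the 2 kinds of leg gave an adjusted p = 0.0566 for Cdkn1a. Plet1 differed by 2.37 (adjusted p = 0.000181) and Nrcam, a neuronal adhesion molecule, by 1.88 (adjusted p = 7.72e-05). Nrcam was not above background in any FOXO3 control leg, so that the size of its difference is limited by the background there. Plet1 (3.19 to 3.62) and Gstt1 (3.47 to 3.89) were at or near background in FOXO3 control legs, with the same limit.

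Acute phase genes were higher with them, in 8 of 9 measured genes, beside 18.5% of all genes, with a median difference of 1.10. Orm2, an orosomucoid secreted in inflammation, ranged over 5.10, 6.36 and 6.78 in FOXO1 control legs, against 3.27, 3.86 and 5.08 in FOXO3 control legs, a difference of 2.14 (adjusted p = 0.000715). Orm1 differed by 1.60, with 0 of the FOXO3 control legs above background. Serpina3n, a serine protease inhibitor, differed by 1.75 (adjusted p = 0.00921), Lcn2, the iron-binding lipocalin 2, by 1.33 (adjusted p = 0.00456) and Mt2, a metallothionein, by 0.69 (adjusted p = 0.0103). In the FOXOdn-labelled legs 4 of the 9 genes were higher in the FOXO1 cohort, beside 16.7% of all genes, with a median difference of 0.36, and the cohort difference was tested as larger in control-labelled legs for Orm2 (2.21, adjusted p = 0.00442) and Orm1 (1.24, adjusted p = 0.00686).

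Macrophage genes were the next group to differ. Cd68, a lysosomal protein of macrophages, ranged over 9.31, 9.89 and 10.56 in FOXO1 control legs, against 7.59, 8.27 and 9.24 in FOXO3 control legs, a difference of 1.5 (standard error 0.31, adjusted p = 0.00401). Csf1r, the receptor for the growth factor of macrophages, ranged over 7.58, 7.98 and 8.67 in FOXO1 control legs, against 6.02, 6.55 and 7.16 in FOXO3 control legs, a difference of 1.48 (standard error 0.19, adjusted p = 0.000191). The groups of neither gene overlapped. Of 27 measured genes of macrophages and monocytes 13 were higher and 0 lower in FOXO1 control legs, beside 18.5% and 3.7% of all genes, with a median difference of 0.85. After quantile normalization 8 and after cyclic loess 9 of the 27 were higher, beside 1636 and 1762 of all 20274 genes. Among the 13 were Lgals3, a galectin (1.27), Adgre1, a surface receptor that marks mouse macrophages (1.25), Tyrobp, a signalling adaptor (1.08), and Lyz2, a lysozyme (0.91). Itgam, the integrin CD11b, differed by 0.66 (adjusted p = 0.192) and Fcgr1, a high-affinity receptor for antibodies, by 1.08 (adjusted p = 0.0626). The median of the 27 genes per array was 6.82 to 8.40 in FOXO1 control legs and 5.98 to 7.28 in FOXO3 control legs, so the groups overlapped at the level of the list. In FOXOdn-labelled legs 1 of the 27 genes was higher, beside 16.7% of all genes, and the median difference was 0.04. The test of the difference between the 2 kinds of leg called 0 of the 27, beside 0.291% of all genes. These counts therefore do not show that the kinds of leg differed.

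Other cell types differed less. Of 18 chemokines 5 were higher in FOXO1 control legs, beside 18.5% of all genes. After quantile normalization or cyclic loess 3 were higher, beside 1636 and 1762 of all 20274 genes. Among the 5 higher as deposited were Ccl8 at 1.55 (adjusted p = 0.00518), Ccl6 at 1.01 (adjusted p = 0.0103) and Cxcl12 at 0.81 (adjusted p = 0.000354), while Ccl2 differed by 0.31 (adjusted p = 0.672) and Ccl7 by 0.93 (adjusted p = 0.221). Of 15 fibroblast and matrix genes 7 were higher, beside 18.5% of all genes, among them Thy1, a surface protein of fibroblasts and T cells (1.28, adjusted p = 0.00128), Col3a1, a fibrillar collagen (0.94, adjusted p = 0.00362), and Fn1, fibronectin (0.72, adjusted p = 0.0399), while Col1a1 differed by 0.58 (adjusted p = 0.0746). After centring on array medians 3 of these 15 genes were higher, beside 2472 of all 20274 genes, and after quantile normalization 2, beside 1636. Scx, a transcription factor of tendon, was higher by 1.33 (adjusted p = 0.00176). It was the 1 gene called of 7 tendon genes, or 14.3%, beside 18.5% of all genes. For T and NK cells 0 of 15 genes were called at an adjusted p under 0.05, beside 18.5% of all genes higher and 3.7% lower. Their median difference was 0.23. Of 11 neutrophil genes 0 were above background in all 12 arrays and 5 in none. Of these 11 genes 2 were higher, or 18.2%, beside 18.5% of all genes. Csf3r, the receptor for a growth factor of neutrophils, was higher by 0.87 (adjusted p = 0.00351). For B cells and for keratinocytes 5 of 7 and 4 of 7 genes were below background in every array. Endothelial genes went both ways, with 3 higher, such as Emcn, endomucin (0.86), and 1 lower of 12, beside 18.5% and 3.7% of all genes. Emcn was also higher by 0.78 in FOXO1dn-labelled than in FOXO3dn-labelled legs.

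**Figure D2:**
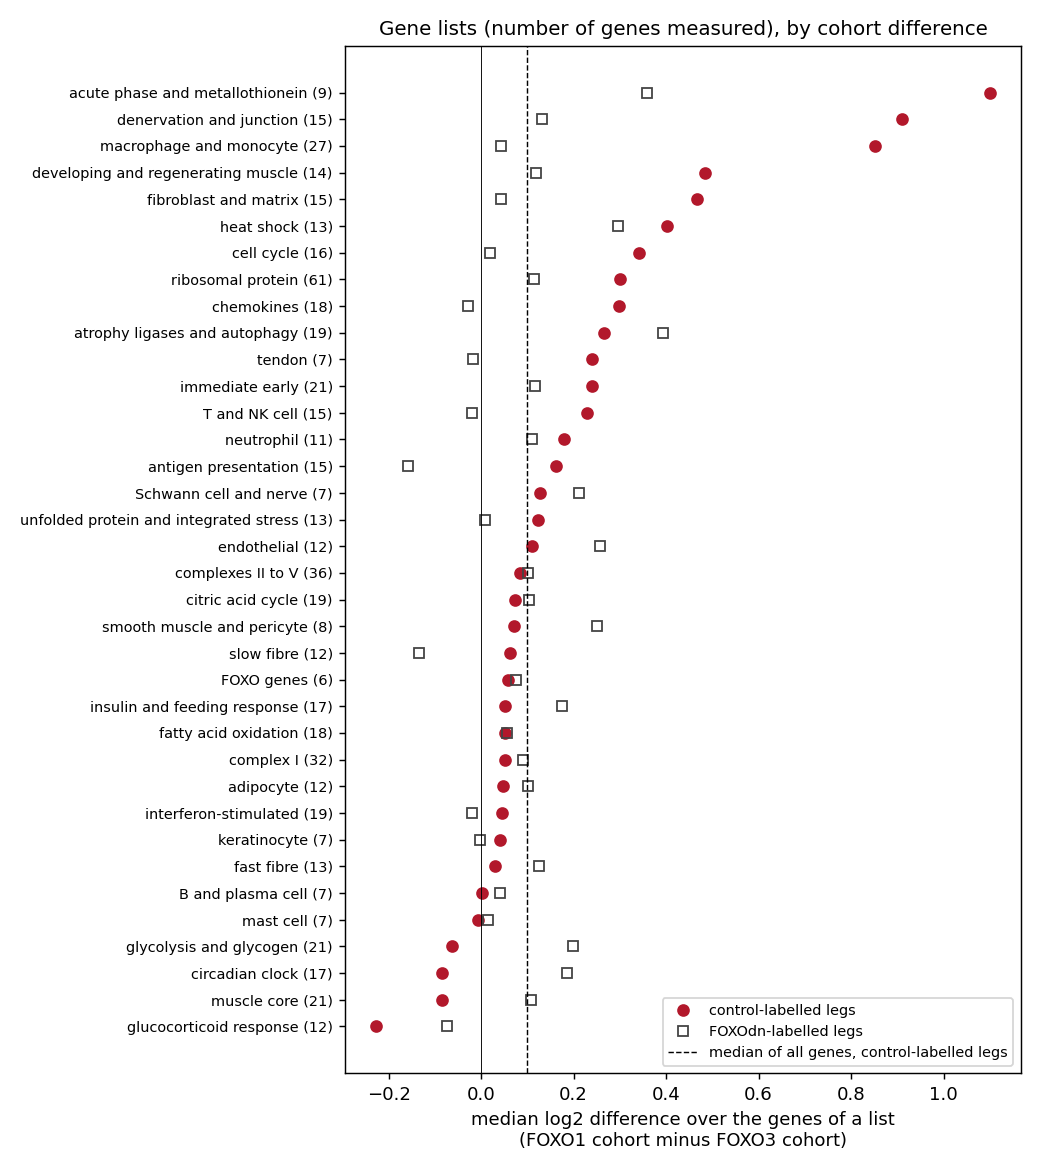
Median log2 difference between the cohorts (x axis) over the measured genes of each list (y axis, number of genes in parentheses), with filled circles for control-labelled and open squares for FOXOdn-labelled legs, and a dashed line at 0.0993, the median of all genes in control-labelled legs. The lists of acute phase, junction and macrophage genes lie farthest to the right in control-labelled legs (1.10, 0.91 and 0.85), with 0.36, 0.13 and 0.04 in FOXOdn-labelled legs.

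Some clock genes differed between the cohorts in both kinds of leg and others in 1 kind. Arntl, which encodes the clock activator BMAL1, ranged over 6.45, 6.81 and 6.96 in FOXO1 control legs, against 5.08, 5.40 and 5.79 in FOXO3 control legs, a difference of 1.35, or 2.55-fold (standard error 0.13, adjusted p = 1.69e-05). In the contralateral legs it ranged over 6.19, 6.92 and 6.95 in FOXO1dn-labelled legs, against 5.24, 5.53 and 5.91 in FOXO3dn-labelled legs, a difference of 1.22 (adjusted p = 4.34e-05). Npas2, a paralogue of CLOCK and partner of BMAL1 that was above background in 5 of 12 arrays, was higher by 0.93 (adjusted p = 0.000247) and by 0.61 in the FOXOdn-labelled legs (adjusted p = 0.000984). Dbp, an output factor of the clock, ran the other way, with 6.48, 6.76 and 6.96 in FOXO1 control legs, against 7.13, 7.81 and 8.37 in FOXO3 control legs. Its difference was -1.01 (standard error 0.16, adjusted p = 0.000865), and -0.89 in the FOXOdn-labelled legs (adjusted p = 0.00246). Ciart, a repressor of the clock, was lower by -0.42 (adjusted p = 0.0248), Nr1d2, the nuclear receptor REV-ERBβ, by -0.44 (adjusted p = 0.00697) and Per3, a period protein, by -0.24 (adjusted p = 0.0215). In the FOXOdn-labelled legs Ciart was lower by -0.35 (adjusted p = 0.0434), while Nr1d2 differed by -0.11 (adjusted p = 0.433) and Per3 by -0.09 (adjusted p = 0.497). Of 17 measured clock genes 2 were thus higher and 6 lower in FOXO1 control legs (median difference -0.0851), beside 18.5% and 3.7% of all genes, whereas between FOXO1dn-labelled and FOXO3dn-labelled legs 5 passed upward and 2 downward (median difference 0.186), beside 16.7% and 3.04%. For 0 of the 17 did the test of the difference between the 2 kinds of leg pass, beside 0.291% of all genes. Those not called included Clock (0.20, adjusted p = 0.0755), Per1 (-0.17, adjusted p = 0.144) and Nr1d1 (0.33, adjusted p = 0.0961), which was higher by 0.69 in FOXO1dn-labelled legs (adjusted p = 0.000398). The labels give no time of day.

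The promoters of 2 of the lower clock genes are shown because each holds more than 1 copy of an element of the clock. Capitals mark CACGTG, the E-box bound by BMAL1 and its partners, in Ciart, and TTATGTAA, the D-box bound by DBP, in Per3, searched on both strands in the 250 bases before the start.
Ciart chr3:95882229-95882478 (-): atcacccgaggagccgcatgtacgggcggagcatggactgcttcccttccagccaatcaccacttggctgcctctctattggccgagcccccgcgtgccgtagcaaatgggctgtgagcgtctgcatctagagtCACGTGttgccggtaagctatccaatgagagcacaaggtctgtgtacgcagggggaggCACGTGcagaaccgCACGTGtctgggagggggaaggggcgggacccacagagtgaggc
Per3 chr4:151044666-151044915 (-): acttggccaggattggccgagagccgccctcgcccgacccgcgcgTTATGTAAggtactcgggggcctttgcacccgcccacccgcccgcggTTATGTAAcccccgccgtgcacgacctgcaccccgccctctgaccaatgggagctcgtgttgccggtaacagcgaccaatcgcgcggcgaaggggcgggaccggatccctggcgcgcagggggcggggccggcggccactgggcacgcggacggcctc
CACGTG starts 116, 58 and 44 bases before the start of Ciart, and TTATGTAA starts 205 and 158 bases before that of Per3. CACGTG occurred in 6.02% and TTATGTAA in 0.819% of all 32851 windows.

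Of 13 measured heat shock genes 9 were higher in FOXO1 control legs, beside 18.5% of all genes, and 6 in FOXO1dn-labelled legs, beside 16.7%. Hspa1a, the inducible HSP70, ranged over 5.64, 6.65 and 8.23 in FOXO1 control legs, against 4.14, 4.83 and 5.58 in FOXO3 control legs, a difference of 1.87 (adjusted p = 0.00225), and it differed by 1.60 in FOXOdn-labelled legs (adjusted p = 0.000162). The highest value was that of FOXO1 mouse 4, which also held the highest Atf3, a stress-induced transcription factor, with 9.43. Hspd1, the mitochondrial chaperonin HSP60, averaged 7.89 ± 0.05 in FOXO1 control legs and 7.11 ± 0.23 in FOXO3 control legs (SD, n = 6 each). Hsph1 differed by 0.54, Hspa8, the constitutive HSC70, by 0.37, and Hsp90aa1 by 0.78. Atf3 differed by 1.30 (adjusted p = 0.00741) and by 1.08 in FOXOdn-labelled legs (adjusted p = 0.0341). After centring 6 and after quantile normalization or cyclic loess 5 of the 13 heat shock genes were higher in FOXO1 control legs. Over all 20274 genes 2472, 1636 and 1762 were higher under these scalings.

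**Figure D3:**
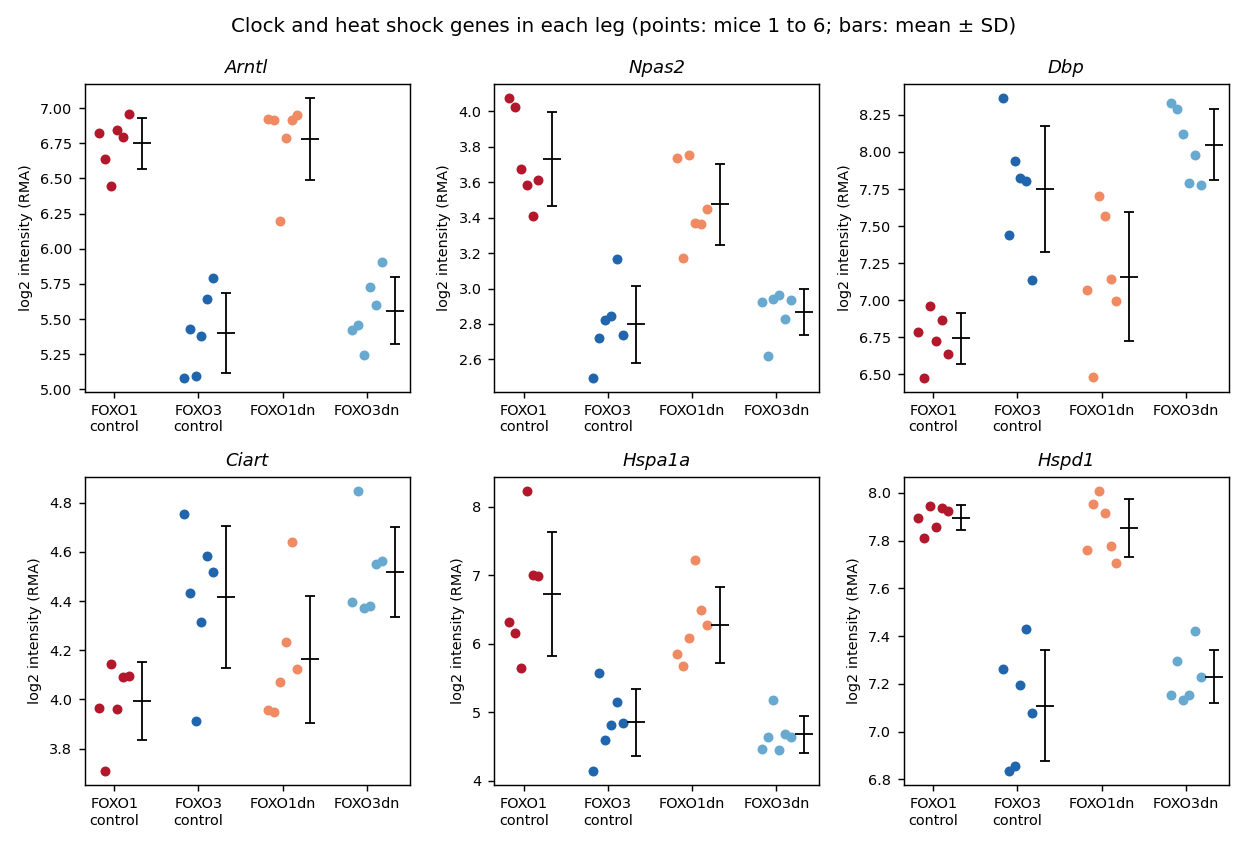
Log2 intensity (y axis) of Arntl, Npas2, Dbp, Ciart, Hspa1a and Hspd1 in the 4 groups of legs (x axis), with 1 point per mouse and bars for the mean and SD of 6 mice. Arntl is near 6.75 in FOXO1 control legs and 5.40 in FOXO3 control legs on average, and the same order holds between FOXO1dn-labelled and FOXO3dn-labelled legs.

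Glucocorticoid-responsive genes included 3 of 12 that were lower in FOXO1 control legs, beside 3.7% of all genes, and 0 that were higher. After quantile normalization or cyclic loess 5 were lower, beside 1852 and 1780 of all 20274 genes. Klf15, a transcription factor of amino acid breakdown, differed by -0.93 (adjusted p = 0.0277), Cebpb by -0.52 (adjusted p = 0.00753) and Dusp1, a phosphatase of MAP kinases, by -0.41 (adjusted p = 0.0311). The calls of Klf15 and Dusp1 were lost without single mice, in 7 and 6 of 12 such fits. Klf15 and Cebpb were also lower in FOXO1dn-labelled than in FOXO3dn-labelled legs, by -0.62 and -0.54. Pfkfb3, which makes the activator of phosphofructokinase, was higher by 1.18 (adjusted p = 0.000134) and by 1.76 in FOXOdn-labelled legs (adjusted p = 1.64e-05). Angptl4, an inhibitor of lipoprotein lipase, was higher by 0.90 (adjusted p = 0.00337). It was the 1 higher gene of 17 of the insulin and feeding response, with 1 lower, beside 18.5% and 3.7% of all genes. Tcn2, the vitamin B12 carrier transcobalamin, was outside the rule for named genes and was picked after its values were seen. It ranged over 6.73, 6.87 and 7.16 in FOXO1 control legs, against 4.83, 4.98 and 5.33 in FOXO3 control legs, and differed by 1.88 (adjusted p = 8.83e-08) and by 1.60 in FOXOdn-labelled legs (adjusted p = 2.68e-06).

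Genes of protein synthesis differed as well, and so did single genes of its quality control. Of 61 ribosomal protein genes 31 were higher and 3 lower in FOXO1 control legs, beside 18.5% and 3.7% of all genes, with a median difference of 0.30. In FOXOdn-labelled legs 18 were higher and 3 lower, beside 16.7% and 3.04%. Rpl34 differed by 0.98 (adjusted p = 0.00414), Rps27l by 0.81 (adjusted p = 6.22e-05) and Rpl27 by 0.70 (adjusted p = 0.000125). After quantile normalization 20 were higher and 3 lower, beside 1636 and 1852 of all 20274 genes. Of 13 genes of the unfolded protein and integrated stress responses 3 were higher and 1 lower, beside 18.5% and 3.7% of all genes. Their median difference was 0.122, beside 0.0993 over all genes, and became -0.0841 after quantile normalization. Xbp1, a transcription factor of the unfolded protein response, averaged 8.31 ± 0.05 in FOXO1 control legs and 7.45 ± 0.17 in FOXO3 control legs (SD, n = 6 each), and was also higher in FOXOdn-labelled legs, by 0.60. Asns, asparagine synthetase, differed by 0.98 and by 0.72 in these 2 comparisons. Dnajb9, a chaperone of the endoplasmic reticulum, was lower by -0.75 (adjusted p = 0.000315) in FOXO1 control legs but differed by -0.10 between FOXOdn-labelled legs, and the 2 differences differed by -0.65 (adjusted p = 0.0381). Of 19 genes of atrophy ligases and autophagy 8 were higher in control-labelled legs, beside 18.5% of all genes, and 11 in FOXOdn-labelled legs, beside 16.7%. In control-labelled legs 5 were called after centring and 3 after quantile normalization or cyclic loess, where the median difference of 0.27 became 0.0677 and 0.109. Over all 20274 genes 2472, 1636 and 1762 were higher under these scalings. Members called in both kinds of leg included Map1lc3a, an LC3 protein of autophagosomes (0.62 and 0.68), and Traf6, a ubiquitin ligase (0.54 and 0.82).

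**Figure D4:**
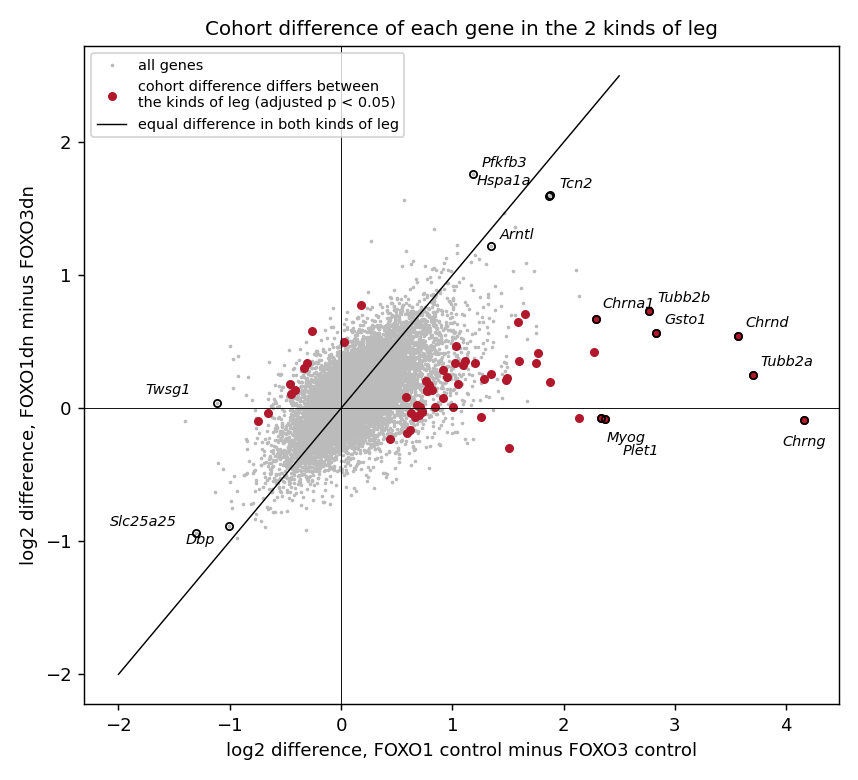
Log2 difference between the cohorts of each of 20274 genes in control-labelled legs (x axis) and in FOXOdn-labelled legs (y axis), with a line where both are equal and red points for the 59 genes whose cohort difference differed between the 2 kinds of leg. Chrng lies at 4.16 and -0.09, near the x axis, and Arntl at 1.35 and 1.22, near the line.

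Over all genes, 3760 were higher and 751 lower in FOXO1 control legs at an adjusted p under 0.05, of which 196 (0.967%) and 8 (0.0395%) passed the study's added limit of 1 on the log2 scale. Between FOXO1dn-labelled and FOXO3dn-labelled legs 3389 genes (16.7%) were higher and 616 (3.04%) lower, which is 19.8% in either direction against 22.3% between the control-labelled legs. At an unadjusted p under 0.05 these shares were 34.2% and 35.9%, and 2138 genes (10.5%) were called in the same direction in both kinds of leg. The preponderance of higher calls came with an overall shift. The median intensity of the 6 FOXO1 control arrays lay between 3.52 and 3.57 and that of the 6 FOXO3 control arrays between 3.45 and 3.50, without overlap (difference 0.0593, exact permutation test, two-sided p = 0.00216, the smallest that 6 against 6 allows). The median gene differed by 0.0765 at mean intensities under 4, by 0.194 between 4 and 6, by 0.19 between 6 and 8, by 0.152 between 8 and 10 and by 0.0438 above 10. Centring each array on its median left 2472 higher and 1071 lower, quantile normalization gave 1636 higher and 1852 lower, and cyclic loess gave 1762 higher and 1780 lower. The split between higher and lower genes thus differed with the scaling. Quantile normalization and cyclic loess bring the arrays to a common distribution or trend, so they cannot show where the deposited split came from. Of the 4511 genes called as deposited, 3223 were also called after centring, 2387 after quantile normalization and 2513 after cyclic loess. The 88 called genes followed through these settings kept their sign in each. They were chosen partly for being called and do not stand for all calls. Principal component 1 (43.1% of the variance) separated the cohorts (exact permutation test, two-sided p = 0.00216), and component 2 (16.6%) gave an exact permutation p = 0.141, with FOXO1 mouse 1 (26.2) and FOXO3 mouse 2 (-34.5) at its ends. Chrng differed by 3.98 to 4.39 over the 22 other settings, which include leaving out each of these mice.

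The genes that were lower in FOXO1 control legs without overlap were fewer, 276 or 1.36% of all, beside 1775 or 8.76% that were higher without overlap. Slc25a25, a mitochondrial carrier of ATP and magnesium, ranged over 5.53, 5.76 and 6.00 in FOXO1 control legs, against 6.80, 6.92 and 7.46 in FOXO3 control legs, a difference of -1.30 (standard error 0.13, adjusted p = 2.86e-05), and -0.94 in FOXOdn-labelled legs (adjusted p = 0.000977). Twsg1, an extracellular modulator of BMP signals, ranged over 7.29, 7.63 and 7.78 in FOXO1 control legs, against 8.09, 8.59 and 10 in FOXO3 control legs, and differed by -1.11 (adjusted p = 0.00711). The highest of these values was that of FOXO3 mouse 2, and Twsg1 differed by 0.04 between FOXOdn-labelled legs. The others named by the rule were Pla2g10os (-1.14), Inmt, a methyltransferase (-1.10), Dbp, Olfr1143, an odour receptor gene (-1.0), Ccdc66 (-0.99), Amy1, an amylase (-0.98), Zxdc, a zinc finger protein (-0.93), 2610044O15Rik8 (-0.88), Ly6c1 (-0.86) and Zfp433 (-0.85). Of these, Inmt, Olfr1143, Ccdc66, Amy1, Zxdc, 2610044O15Rik8 and Zfp433 were also lower in FOXO1dn-labelled than in FOXO3dn-labelled legs at an adjusted p under 0.05.

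The 12 control-labelled legs shared the profile of a fast muscle. Of 20274 genes 7602 (37.5%) were above background in all 12 arrays, 7785 (38.4%) were in none, and Pearson r across genes was 0.954 to 0.984 between arrays of different cohorts. All 21 general muscle genes and all 13 fast-fibre genes were above background in 12 of 12 arrays. Myh4, the myosin heavy chain of fast IIB fibres, ranged over 12.66, 12.83 and 12.98 in FOXO1 control legs, against 12.71, 12.90 and 12.98 in FOXO3 control legs. Myh1, the IIX heavy chain, averaged 12.38 ± 0.14 in FOXO1 control legs and 12.47 ± 0.17 in FOXO3 control legs, Acta1, skeletal actin, 13.04 ± 0.10 and 12.92 ± 0.11, and Ckm, muscle creatine kinase, 12.77 ± 0.17 and 12.77 ± 0.18 (SD, n = 6 each). The differences of these 4 genes did not pass the threshold, nor did that of Neb, nebulin (-0.06). Myh2, the IIA heavy chain, ranged over 7.62, 8.58 and 9.61 in FOXO1 control legs, against 8.81, 9.56 and 10.27 in FOXO3 control legs, and was lower by -1.01 (adjusted p = 0.0306). Ttn, titin, was lower by -0.30 (adjusted p = 0.0444), where FOXO1 mouse 3 had the lowest value with 10.81. The slow markers Myh7 and Myl2 were each above background in 1 of 12 arrays, while Tnni1, slow troponin I (0.90), and Atp2a2, the slow calcium pump (0.66), were higher and Myoz2, a slow-fibre protein of the Z-disc, was lower (-0.60) in FOXO1 control legs. The calls of Myh2, Ttn and Atp2a2 were lost without single mice, in 6, 9 and 8 of 12 such fits.

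The FOXO genes themselves did not separate the cohorts. Foxo1 ranged over 6.85, 7.22 and 7.50 in FOXO1 control legs, against 6.99, 7.18 and 7.74 in FOXO3 control legs, a difference of -0.05 (adjusted p = 0.841). Foxo3 averaged 4.01 ± 0.13 in FOXO1 control legs and 4.00 ± 0.16 in FOXO3 control legs, and Foxo4 5.56 ± 0.32 and 5.68 ± 0.55 (SD, n = 6 each). Foxo6 was above background in 0 of 12 arrays. Foxk1, a forkhead factor that competes at FOXO sites, was higher by 0.60 (adjusted p = 0.00233) and by 0.61 in FOXOdn-labelled legs (adjusted p = 0.0197).

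Variation within the cohorts was described over single genes. Among the genes above background in all 12 arrays the median SD within cohorts was 0.207, with 382 above 0.5 and 10 above 1. The 12 most variable genes of the rule were Cd274, the checkpoint ligand PD-L1, the GTPases Igtp, Iigp1, Irgm2, Gbp2b, Gbp4 and Gbp8, the monocyte chemokine Ccl7, Slamf8, Chil3, a chitinase-like protein of macrophages, Gzmb, a granzyme of cytotoxic cells, and the immediate early gene Nr4a3. Cd274 ranged over 5.91, 9.18 and 10.03 in FOXO1 control legs, against 8.60, 9.25 and 10.27 in FOXO3 control legs. FOXO1 mice 1 and 2, with 5.91 and 7.61, stood below the other 10. Igtp ranged over 6.94, 10.27 and 11.06 in FOXO1 control legs, against 10.13, 10.70 and 11.23 in FOXO3 control legs, again lowest in FOXO1 mouse 1 and highest in FOXO3 mouse 2. The cohorts did not differ in these genes at the threshold, apart from Chil3 (1.67, adjusted p = 0.0332), with adjusted p = 0.456 for Cd274, 0.219 for Igtp, 0.178 for Iigp1 and 0.176 for Irgm2. Gbp7, a guanylate-binding protein, and Parp14 were lower in FOXO1 control legs by -1.40 (adjusted p = 0.0381) and -1.06 (adjusted p = 0.0481), with overlap. Of 19 interferon-stimulated genes these 2 were lower and 0 higher, beside 3.7% and 18.5% of all genes. Without FOXO3 mouse 2 neither passed (adjusted p = 0.0692 and 0.0828), and the calls were lost in 5 and 10 of the 12 fits without a mouse, as was that of Chil3 in 7. Ccl7 ranged over 5.78 to 8.32 in FOXO1 control legs and 5.09 to 8.04 in FOXO3 control legs, with mouse 1 lowest in the FOXO1 cohort and mouse 2 highest in the FOXO3 cohort.

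**Figure D5:**
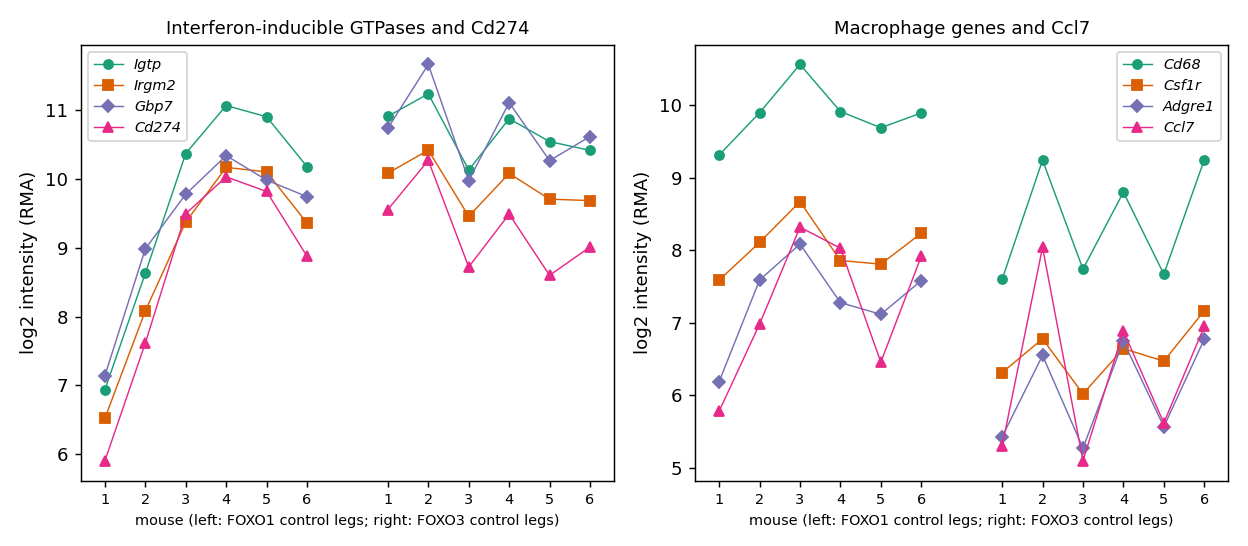
Log2 intensity (y axis) of interferon-inducible genes (left panel) and of macrophage genes and Ccl7 (right panel) in the control-labelled leg of each mouse (x axis, FOXO1 mice 1 to 6 and then FOXO3 mice 1 to 6), with lines joining the values of a gene. FOXO1 mouse 1 is the lowest of the 12 for Igtp (6.94) and Cd274 (5.91), and FOXO3 mouse 2 the highest (11.23 and 10.27).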

How the data were processed

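Expression in 24 tibialis anterior muscles was read on 1 Affymetrix Mouse Gene 2.1 ST array each, and the 12 control-labelled legs were analysed here as 6 against 6, with each mouse giving 1 such leg. The deposited values are log2 intensities that the authors made by robust multiarray averaging. Raw scans were not analysed here.

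Of 41345 probe sets, 23521 had 1 gene symbol in the platform annotation, 1820 several and 16004 none. Pseudogene, predicted-gene and microRNA probe sets (2003) were dropped, and the brightest probe set was kept for each of 20274 genes. Cohorts were compared with limma 3.58.1 in R 4.3.3 (lmFit and eBayes, no covariate, Benjamini-Hochberg over all genes, threshold 0.05). The difference between the 2 kinds of leg was tested on 24 arrays with mouse as a random effect (duplicateCorrelation, consensus correlation 0.061). Single values per array were tested by exact permutation. The scripts were tested on simulated data.

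The text names the 12 genes with the largest difference in each direction without overlap, list members called (up to 4 a list) or first in a list, the 12 most variable genes and the FOXO genes, and other list members as examples. Members and gene lists were chosen with earlier results of these data known. Alternatives were other scalings, probe set rules, filters, variance models, a block on the mouse number and leaving out each mouse. The p-values measure the spread between mice, and promoter windows are RefSeq's on GRCm38.p6.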

Additional observations from a re-analysis of the deposited data

Results flagged for a closer look

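The cohort difference was larger in control-labelled than in FOXOdn-labelled legs, by limma's test of the difference, for Chrng (4.25 on the log2 scale, adjusted p = 3.46e-06), Tubb2a (3.46, adjusted p = 2.57e-05), Chrnd (3.02, adjusted p = 0.00596), Plet1 (2.45, adjusted p = 0.000317), Myog (2.41, adjusted p = 0.00668), Gsto1 (2.26, adjusted p = 6.65e-08), Orm2 (2.21, adjusted p = 0.00442), Tubb2b (2.04, adjusted p = 0.000111), Gstt1 (1.85, adjusted p = 0.00442), Nrcam (1.69, adjusted p = 0.000602), Chrna1 (1.61, adjusted p = 0.0409), Orm1 (1.24, adjusted p = 0.00686) and Musk (0.868, adjusted p = 0.00442). For Dnajb9 it was -0.653 (adjusted p = 0.0381), as this gene was lower in FOXO1 control legs and not in FOXO1dn-labelled legs. Values of Chrng, Plet1, Gstt1, Nrcam, Orm1 and Tubb2b at or near background limit the sizes given for them.

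In 11 of 250 groups of 6 values tested, 1 mouse lay far from the other 5. Chance gives such a gap in about 1 in 20 groups, so the number is no higher than chance gives, and the values are listed without further weight. FOXO1 mouse 3 stood apart in 5 genes, with 6.67 for Lgals3, 10.8 for Ttn, 12 for Neb, 3.63 for Amy1 and 4.95 for Foxo4. FOXO1 mouse 1 had 8.37 for Nr1d1 and 7.31 for Map1lc3a, and FOXO1 mouse 4 had 5.14 for Lcn2, the lowest of its group. FOXO3 mouse 2 had the highest value of its group for Twsg1 (10), Dnajb9 (7.74) and Nrcam (3.52).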

How the results depend on the processing

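The count of genes higher in FOXO1 control legs was 2472 after centring arrays on their medians, 1636 after quantile normalization and 1762 after cyclic loess, which was chosen after seeing the data, against 3760 as deposited. The count of lower genes was 1852 and 1780 under the last 2, against 751. With a difference over 1, quantile normalization and cyclic loess gave 100 and 103 higher genes, against 196, and 26 and 24 lower, against 8. Centring left 2247 genes higher between FOXO1dn-labelled and FOXO3dn-labelled legs, against 3389. Without single mice, the genes whose cohort difference differed between the 2 kinds of leg numbered 26 to 120 in the positive and 4 to 62 in the negative direction, against 49 and 10. Past a difference of 1 these were 15 to 49 and 0 to 2, against 21 and 0. Also without single mice, genes lower by over 1 numbered 5 to 10 in control-labelled legs, against 8, and 0 to 2 in FOXOdn-labelled legs, against 0, where centring gave 1. The mouse numbers do not pair the cohorts, since same-numbered mice deviated together with r from -0.34 to 0.33. A fit with the number as a replicate block called 3339 higher and 662 lower. Of 88 called genes followed, 73 passed under all 22 settings and 0 reversed. Those that lost the call in at least 1 setting included Ncam1, Fn1, Ttn, Atp2a2, Myh2, Parp14, Gbp7, Chil3, Klf15, Hdac4, Nes, Mymk, Per3, Ciart and Dusp1.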
